A study of Macaca mulatta and Mus musculus with 5 samples.

Results

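CD3D, CD3E, CD3G and CD247 encode the signalling chains of the T cell receptor complex (CD3 delta, CD3 epsilon, CD3 gamma and CD3 zeta). They were chosen by name, as 4 macaque genes and their 4 mouse orthologues Cd3d, Cd3e, Cd3g and Cd247, which makes 8 of the 45966 gene names listed over both species (14949 in the macaque tables and 31017 in the mouse table). All 8 were listed in every library of their species. In the mouse annotation (GENCODE, mm10) Cd3g (chr9:44969572-44980431, minus strand), Cd3d (chr9:44981786-44987339, plus strand) and Cd3e (chr9:44998740-45009627, minus strand) lie side by side on chromosome 9, with 1354 bases between Cd3g and Cd3d and 11400 bases between Cd3d and Cd3e. Cd247 lies apart on chromosome 1 (chr1:165788681-165877277, plus strand). In the macaque annotation (RefSeq, T2T-MMU8v2.0) CD3E, CD3D and CD3G were likewise consecutive genes on chromosome 14, between MPZL2 and UBE4A, and CD247 was on chromosome 1.

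The alpha-beta or gamma-delta heterodimer of the T cell receptor binds antigen but carries no signalling domain. CD3 epsilon pairs with CD3 delta and with CD3 gamma, the zeta chain joins as a homodimer, and the kinases LCK and ZAP70 act on their cytoplasmic motifs. Natural killer (NK) cells have no surface T cell receptor, but the zeta chain also serves their activating receptors NKp46 (NCR1), NKp30 (NCR3) and CD16. A sort on CD3 reads protein at the cell surface, whereas these libraries read RNA, so detection of a chain's RNA does not show a receptor on the surface.

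The series holds single-cell RNA libraries (10x, 3′ ends) of sorted immune cells. The groups used here are the meninges of female Chinese rhesus macaques aged 4 to 8 years (2 channels), the spleen of macaques with the same labels (2 channels) and the meninges of male C57BL/6 mice (1 library, which pools hashtagged cells from animals aged 2, 21 and 48 days). No genotype other than strain and no treatment is given for any group. The macaque sort is given as CD45, CD11b and CD3 each followed by a dash, and the mouse sort as CD45 and CD11b only, so CD3-positive cells were to be removed in macaque and were not in mouse. The sign after CD45 cannot be read with certainty as a depletion. PTPRC, the gene of CD45, averaged 1016 ± 14.4 CPM (UMIs of a gene scaled to the total of its cells) in meninges and 1004 ± 113 CPM in spleen (SD, n = 2 channels each). Mouse cells could not be split by age here. Nothing in the labels ties a channel to an animal, so all p-values measure only the spread between channels, which may be technical.

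After filtering there remained 4029 and 4269 cells of meninges, 5839 and 6783 of spleen and 13267 of mouse. The median number of UMIs (unique molecular identifiers, counted RNA molecules) in a cell was 4078 and 4024 for meninges, 2404 and 2668 for spleen and 6394 for mouse. Any pair of libraries shared at most 28 cell barcodes. Because depth differed, shares of cells were compared after each cell was thinned to 1000 UMIs, with shallower cells left out. Cells were gated on at least 1 UMI of NKG7, a granule membrane protein of cytotoxic lymphocytes, of NCR1, or of IL7R, the interleukin-7 receptor chain of T cells, innate lymphoid cells and early B cells. NKG7-positive cells were 35.9 and 36.1% of meningeal cells, 8.60 and 8.76% of spleen cells and 19.3% of mouse cells. NCR1-positive cells numbered 427 and 416 in meninges, 151 and 157 in spleen and 331 in mouse. Since early B cells carry IL7R, the IL7R gate also required no UMI of 7 B cell genes in macaque (429 and 420 cells in meninges, 47 and 58 in spleen). In mouse that rule would have removed most gated cells, because 94.5% of Il7r-positive cells held at least 1 such UMI. It was replaced there by fewer than 10 B-gene UMIs per 10000 (2188 cells).

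The CD3 chains were abundant in macaque NKG7-positive cells despite the sort on CD3. In these cells CD3D stood at 508 and 520 CPM in meninges, against 361 and 433 CPM in spleen, and at 416 CPM in mouse, where no such sort was made. CD3E stood at 361 and 347 CPM in meninges, against 172 and 216 CPM in spleen, and Cd3e at 290 CPM in mouse. CD3G stood at 276 and 254 CPM in meninges, against 141 and 169 CPM in spleen, and Cd3g at 516 CPM in mouse. Each of the 3 was thus higher in both meningeal channels than in both spleen channels. CD247 was sparse in macaque, with 107 and 122 UMIs in meninges and 19 and 16 UMIs in spleen (18.8 and 20.1 CPM against 13.4 and 10.2 CPM), while mouse Cd247 gave 2065 UMIs (66.3 CPM).

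B cells (cells with MS4A1 and without NKG7, NCR1 or IL7R) served as the background level, because free RNA can put UMIs into cells that do not express a gene. CD3E was found there at 1.21 and 0.879 CPM in meninges, 1.61 and 1.0 CPM in spleen and 3.59 CPM in mouse, far below the gated cells. CD3G lay at 15.8 and 15.2 CPM in meningeal B cells and 9.85 and 7.85 CPM in spleen B cells. CD247 gave 0 UMIs in the B cells of both meningeal channels, which allows up to 0.203 and 0.184% of cells with a UMI by counting error alone and does not limit the share of cells that express it. CD3D behaved otherwise and is described further on.

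Cells with RNA for at least 2 of CD3D, CD3E and CD3G were found in each gate of both macaque tissues. After thinning, 26.1 and 24.0% of NKG7-positive cells in meninges held such RNA, against 17.2 and 19.9% in spleen, and 35.7% did in mouse. Among NCR1-positive cells the shares were 19.9 and 14.9% in meninges, 17.5 and 19.5% in spleen and 9.37% in mouse. Among IL7R-positive cells without B genes they were 27.6 and 27.7% in meninges, 30.3 and 28.6% in spleen and 37.6% in mouse. B cells were between 0.0715 and 0.250% in all 5 libraries. The mouse library, with T cells left in, thus had the widest gap between Ncr1-positive and Il7r-positive cells, and the macaque channels had the narrower one.

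The difference between tissues, meninges minus spleen, was 6.50 percentage points in NKG7-positive cells (25.0 ± 1.52% against 18.5 ± 1.95%, SD, n = 2 channels each). With 2 channels against 2 an exact two-sided permutation test cannot go below p = 0.33, which is the value it gave. In NCR1-positive cells the difference was -1.17 points (17.4 ± 3.53% against 18.5 ± 1.45%, exact permutation p = 1), and in IL7R-positive cells -1.78 points (27.7 ± 0.00778% against 29.4 ± 1.22%, exact permutation p = 0.33). The first difference was 2.61 points with B-gene-rich cells left out. Without thinning it was 26.9 points and the other 2 changed sign, to 16.2 and 19.2 points, with the median depth of the gated cells higher in meninges. NCR1-positive cells without IL7R were compared with IL7R-positive cells without NCR1 in the same channel. Their shares were 18.3, 15.4, 16.4 and 20.3%, against 27.5, 30.0, 30.4 and 31.8% (meninges channels 1 and 2, then spleen channels 1 and 2). The NCR1-positive share was lower in 4 of 4 channels, by 12.4 points on average (17.6 ± 2.18% against 29.9 ± 1.81%, SD, n = 4), with p = 0.13 in an exact two-sided paired permutation test, the smallest that 4 pairs allow. The same shares were 6.67 and 39.0% in mouse.

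**Figure D1:**
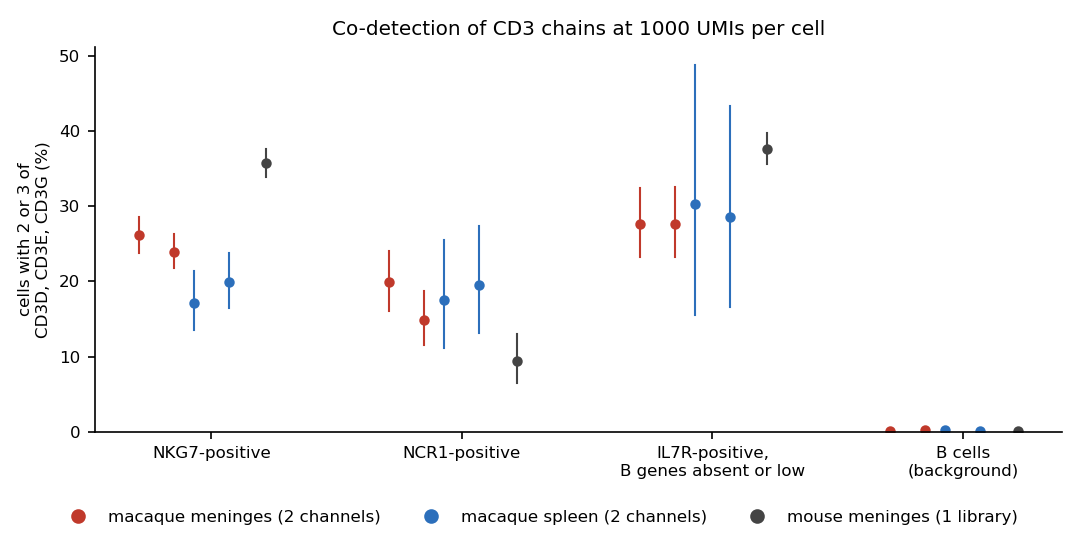
Percent of cells with at least 1 UMI of 2 or 3 of CD3D, CD3E and CD3G, after thinning each cell to 1000 UMIs, by gate (x axis) and library (colour), with exact binomial 95% intervals that cover counting error only. Mouse Ncr1-positive cells (9.37%) lie below mouse Nkg7-positive (35.7%) and Il7r-positive cells (37.6%), the macaque gates lie between 14.9 and 30.3%, and B cells lie at or below 0.250%.

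Without thinning, 60.1 and 58.1% of NKG7-positive meningeal cells held at least 2 of the 3 chains, against 29.9 and 34.5% in spleen, and 57.9% did in mouse. All 3 chains were found together in 28.4 and 29.1% of these meningeal cells, 11.2 and 13.0% of the spleen cells and 55.3% of the mouse cells. CD247 together with at least 2 of the others was rare in macaque, at 4.70 and 4.28% in meninges and 1.39 and 1.35% in spleen, but was found in 37.5% of mouse Nkg7-positive cells. Cells with CD247 alone were the reverse case. They made up 11.2% of mouse Ncr1-positive cells, against 1.28% of mouse Il7r-positive cells, and 2.11 and 2.40% of NCR1-positive cells in meninges and 2.65 and 0.637% in spleen. A further 27.5% of mouse Ncr1-positive cells held exactly 1 of Cd3d, Cd3e and Cd3g. These unthinned shares are not matched for depth. The median of NKG7-positive cells was 8688 UMIs in mouse, against 3768.5 and 3764 in meninges and 2257 and 2111 in spleen. In mouse Nkg7-positive cells Cd3g was found with Cd247 in 38.4% without thinning and in 5.74% after it.

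Detection of one chain went with detection of another in most channels, as a description within each library. Among thinned NKG7-positive cells, CD3E was found in 40.8 and 35.3% of CD3D-positive cells in meninges, against 25.7 and 27.7% of CD3D-negative cells. The same shares were 34.0 and 37.5% against 11 and 18.6% in spleen, and 45.7% against 17.5% in mouse. Of CD3E with CD3G the ratio of joint detection to the product of the 2 shares was 1.18 in both meningeal channels, 1.17 and 1.10 in spleen and 1.76 in mouse. In NCR1-positive cells the ratio for CD3D with CD3E reached 5.32 in mouse, against 1.70 and 1.36 in meninges and 2.71 and 1.37 in spleen. Of the 5 libraries, mouse thus had the highest ratio for this pair in NCR1-positive cells, from 11 of 331 cells. In the same mouse cells the ratio of Cd247 was 0.707 with Cd3d, 2.68 with Cd3e and 0.893 with Cd3g.

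The next question was how the chains differ between meninges and spleen within the same gate. UMIs were summed per channel and gate and tested with edgeR's quasi-likelihood test over all genes. Fold changes use TMM scaling and can differ in sign from CPM, which are scaled to all UMIs. Over all cells each of the 4 chains was higher in meninges, where 31.1% of the 12441 genes tested were called higher (58.2% in either direction). CD3E had 122 and 121 CPM in meninges, against 15.6 and 18.6 CPM in spleen (log2 fold change 2.87 ± 0.11, SE, adjusted p = 1.89e-07). CD3G had 98.3 and 93.0 CPM in meninges, against 19.7 and 20.2 CPM in spleen (2.30 ± 0.08, adjusted p = 1.15e-07). CD247 had 5.94 and 6.54 CPM in meninges, against 0.995 and 0.910 CPM in spleen (2.75 ± 0.21, adjusted p = 1.07e-05). The smallest change was that of CD3D, with 211 and 221 CPM in meninges, against 114 and 127 CPM in spleen (0.88 ± 0.08, adjusted p = 4.71e-05). The spleen sums took in more B cells, 4747 and 5614 by the definition above, against 1477 and 1633 for meninges. CD3D gave 1533 and 1791 UMIs in the spleen B cells and 428 and 467 in the meningeal ones. CD3E gave 28 and 19 UMIs in the same spleen B cells and CD3G 171 and 149. How far B cells set the size of the CD3D change was not tested. Over all cells, more cells of a type and more RNA per cell cannot be told apart, and NKG7-positive cells were themselves more frequent in meninges.

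Within NKG7-positive cells the differences were smaller, and again all 4 chains were called higher in meninges, as were 18.6% of the 9750 genes tested (33.1% in either direction). The log2 fold changes were 0.56 ± 0.09 for CD3D (adjusted p = 0.000475), 1.06 ± 0.10 for CD3E (5.02e-06), 0.96 ± 0.10 for CD3G (9.43e-06) and 0.93 ± 0.23 for CD247 (0.00868). TRAC, the constant gene of the receptor's alpha chain, moved with them (485 and 477 CPM in meninges, against 304 and 273 CPM in spleen, 0.93 ± 0.08, adjusted p = 1.22e-06). LCK was higher too (0.61 ± 0.08, adjusted p = 7.38e-05), whereas ZAP70 gave 13.9 and 14.7 CPM in meninges and 12.7 and 17.2 CPM in spleen (0.12 ± 0.24, adjusted p = 0.742). B cell genes moved the other way and myeloid markers the same way. Of 7 tested myeloid markers (of 9), 5 were called higher and 0 lower (median 2.33), with a summed level of 144 and 571 CPM in meninges, against 26.0 and 79.0 CPM in spleen, and their part in the result was not tested. At least 1 of the 7 B-gene UMIs was present in 15.4 and 17.4% of NKG7-positive cells in meninges, against 51.4 and 48.3% in spleen, and B cells hold little CD3E. With cells of at least 10 B-gene UMIs per 10000 left out, the changes were 0.20 for CD3D (adjusted p = 0.132), 0.61 for CD3E (0.000919), 0.52 for CD3G (0.0012) and 0.51 for CD247 (0.139), so only CD3E and CD3G kept the call. CD247 also lost it in DESeq2 (0.93, adjusted p = 0.133), with a gate of 2 NKG7 UMIs and without spleen channel 2.

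NCR1-positive cells showed less difference between tissues. CD3G had 188 and 173 CPM in meninges, against 93.1 and 166 CPM in spleen (0.75 ± 0.17, adjusted p = 0.00129). CD3E had 285 and 279 CPM in meninges, against 210 and 281 CPM in spleen, where the groups overlap (0.44 ± 0.14, adjusted p = 0.0205). These 2 of the 4 chains were called higher, as were 13.0% of the 7708 genes tested (20.4% in either direction). CD3D had 346 and 374 CPM in meninges, against 305 and 450 CPM in spleen (0.18 ± 0.14, adjusted p = 0.415), and CD247 had 33 and 42 UMIs in meninges, against 6 and 2 UMIs in spleen (1.29 ± 0.50, adjusted p = 0.069). Spleen channel 1 weighs on both calls: without it the change of CD3G was 0.36 (adjusted p = 0.189) and that of CD3E 0.25 (0.281), and without spleen channel 2 they were 1.19 (6.64e-08) and 0.66 (8.03e-05), with CD3D called as well (0.48, 0.0024). CD247 was called without spleen channel 1 (2.13, adjusted p = 0.0497). The call of CD3E was also lost without meninges channel 1 (0.44, adjusted p = 0.094) or channel 2 (0.45, 0.098), with a gate of 2 NCR1 UMIs (0.50, 0.156) and with B-gene-rich cells left out (0.25, 0.241). The 9 B cell markers summed to 245 and 158 CPM in NCR1-positive cells of meninges, against 990 and 774 CPM in spleen, and the 9 myeloid markers to 18.6 and 77.5 CPM, against 10.8 and 0 CPM. DESeq2 called 0 of the 4 chains here, with adjusted p = 0.063 for CD3G and 0.18 for CD3E.

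In IL7R-positive cells without B genes none of the 3 chains that could be tested was called by edgeR, where 6.96% of the 6882 genes tested were (5.38% higher, 1.58% lower). DESeq2 called none of them either, and 2 of the 3, CD3E and CD3G, had an unadjusted p under 0.05 in edgeR. CD3D had 627 and 661 CPM in meninges, against 679 and 722 CPM in spleen (0.12 ± 0.13, adjusted p = 0.675). CD3E had 357 and 403 CPM in meninges, against 335 and 264 CPM in spleen (0.60 ± 0.18, adjusted p = 0.0676), and CD3G had 216 and 204 CPM in meninges, against 141 and 179 CPM in spleen (0.63 ± 0.21, adjusted p = 0.0984). CD247 gave 12 and 18 UMIs in meninges and 0 UMIs in both spleen channels, whose sums held 47 and 58 cells. With no filter on low counts CD3E was called (0.71, adjusted p = 0.0166). The missing calls do not show that the tissues are alike.

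**Figure D2:**
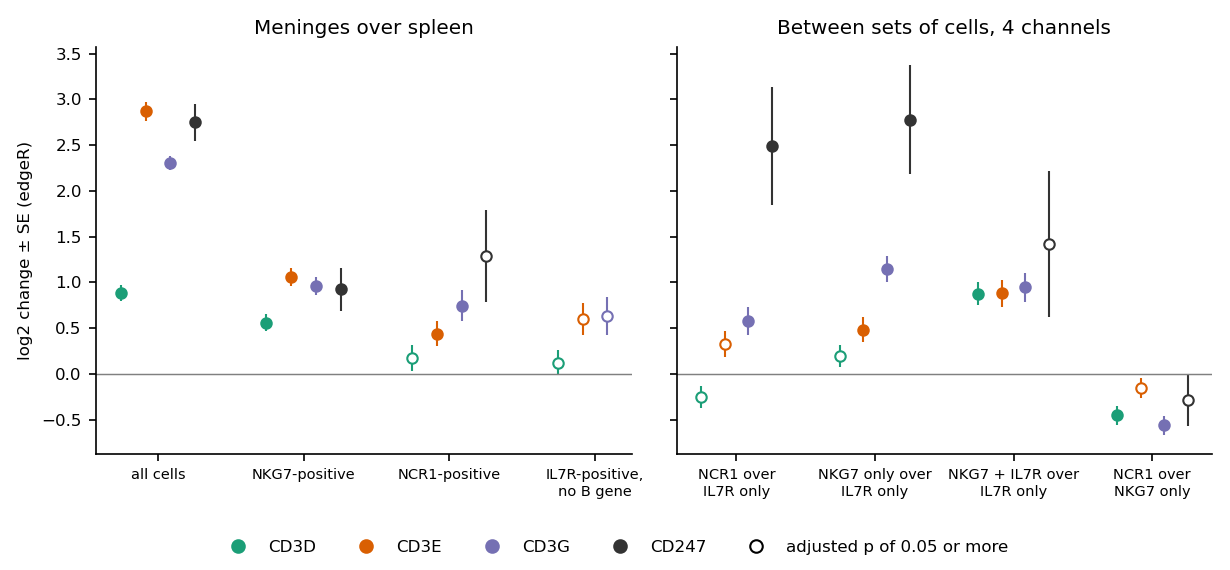
Log2 fold changes of CD3D, CD3E, CD3G and CD247 from edgeR (points) with their standard errors (bars), for meninges over spleen within each gate (left) and between sets of cells within channels (right); open symbols mark an adjusted p of 0.05 or more. The tissue difference of CD3E is 2.87 over all cells and 0.44 in NCR1-positive cells, and CD247 shows the largest change of the 4 between the NCR1 set and the IL7R set, at 2.49.

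To compare cells by gate gene, B-gene-free cells were split into 4 disjoint sets. These were NCR1-positive cells without IL7R (the NCR1 set) and NKG7-positive cells without NCR1 or IL7R (the NKG7-only set). The others were cells with both NKG7 and IL7R but no NCR1 (the NKG7-IL7R set), and IL7R-positive cells with neither of the others (the IL7R set). The IL7R set is named for its gate gene and is not a set of T cells alone. Meninges gave 271 and 284 cells of the NCR1 set and 152 and 139 of the IL7R set. Spleen gave 76 and 89 cells of the NCR1 set, and 27 of the IL7R set in channel 2. Spleen channel 1 had 15 IL7R-set cells, under the minimum of 20, and that sum was left out, so 15 sums entered a fit with the channel as a block. The gate genes NKG7, NCR1 and IL7R chose the cells and their differences are no result.

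In macaque CD247 and CD3G were called higher in the NCR1 set than in the IL7R set, whereas CD3D and CD3E were not called. The outcomes for CD3G, CD3D and CD3E depended on the settings. CD247 had 21.9, 24.8, 10.8 and 0 CPM in the NCR1 set (24, 29, 2 and 0 UMIs), against 3.17, 3.32 and 0 CPM in the IL7R set (2, 2 and 0 UMIs), with a log2 fold change of 2.49 ± 0.65 (adjusted p = 0.00348). The 2 spleen sums of the NCR1 set hold 2 UMIs between them, so the difference rests on the meninges, and without either meningeal channel CD247 was too sparse to be tested. CD3G had 246, 223, 151 and 225 CPM in the NCR1 set, against 127, 143 and 123 CPM in the IL7R set (0.58 ± 0.15, adjusted p = 0.00366). CD3E had 326, 326, 275 and 378 CPM in the NCR1 set, against 234, 250 and 194 CPM in the IL7R set (0.33 ± 0.14, adjusted p = 0.11). CD3D had 401, 409, 399 and 485 CPM in the NCR1 set, against 429, 395 and 635 CPM in the IL7R set (-0.25 ± 0.13, adjusted p = 0.184). The 2 of the 4 chains called higher in the NCR1 set stood beside a background of 7.14% of the 8002 genes tested (17.7% in either direction). CD3G lost the call without meninges channel 1 (0.41, adjusted p = 0.3), with a gate of 2 UMIs (0.32, adjusted p = 0.32) and without the channel block (0.47, adjusted p = 0.31), where CD247 kept it (2.40, adjusted p = 0.038). CD3D was called lower with the gate of 2 UMIs (-0.49, adjusted p = 0.0044), and CD3E higher with no filter on low counts (0.41, 0.036) and with the looser B-gene rule (0.69, 0.0014).

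In mouse the level of each of the 4 chains was lower in the Ncr1 set. Cd3d stood at 101 CPM in the Ncr1 set, against 310 CPM in the Il7r set, Cd3e at 48.2 against 285 CPM and Cd3g at 246 against 588 CPM. Cd247 stood at 52.1 CPM in the Ncr1 set, against 111 CPM in the Il7r set. The mouse Il7r set is not a set of T cells alone either. Without thinning, 39.9% of its cells held 0 of the 4 chains, against 35.1% of the Ncr1 set. With 1 mouse library the ratios between these sets have no replicate check.

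**Figure D3:**
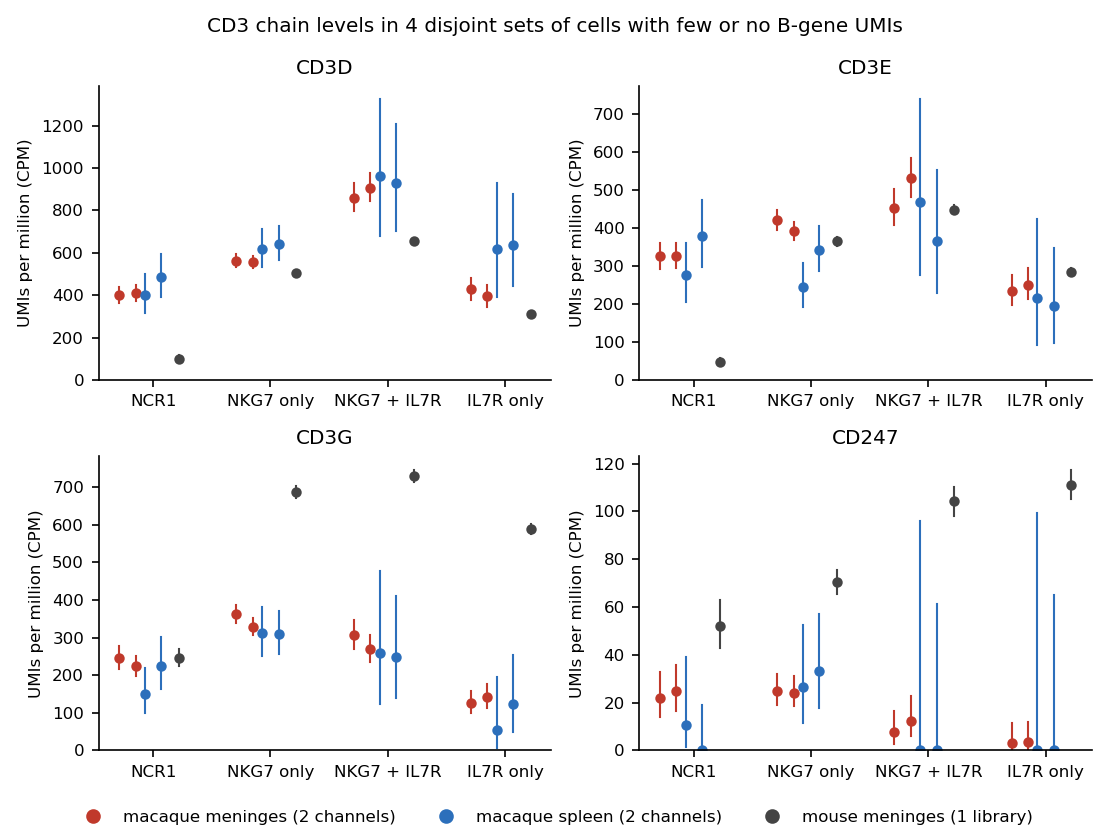
Summed level of each chain in CPM (y axis, a scale for each gene) in the 4 disjoint sets of cells (x axis) by library (colour), with exact Poisson 95% intervals that cover counting error only. In the macaque NCR1 set CD3D lies between 399 and 485 CPM, within the 395 to 635 CPM of the tested IL7R-set sums, and CD3E between 275 and 378 CPM, above their 194 to 250 CPM, whereas mouse Cd3d and Cd3e of the Ncr1 set lie at 101 and 48.2 CPM, below every other set.

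Genes of NK cells were higher in the NCR1 set. The gates favour this direction, because the IL7R set was chosen to lack NKG7 and NCR1. NKG7 was found in 90.6 and 91.1% of NCR1-positive cells in meninges and 77.5 and 82.8% in spleen. The NK and granule genes therefore describe the sets and are no independent check of them. All 10 tested members of the list of zeta-coupled and NK receptor genes (of 19, NCR1 left out) were called higher there. Their median log2 fold change was 3.25, or 2.96 with CD160 at its bound (3 counts over the group at 0), against 0.01 over all genes. The CD94 gene KLRD1, the partner of NKG2 receptors, averaged 552 ± 94.2 CPM in the NCR1 set and 10.8 ± 6.48 CPM in the IL7R set (SD, n = 4 and 3 sums; 6.07 ± 0.28, adjusted p = 5.96e-23). SH2D1B, an adaptor of NK receptors, and CD244, the receptor 2B4, changed by 4.25 and 3.76. CD160, an NK and cytotoxic T cell receptor, had 11.9 to 25.5 CPM in the NCR1 set and 0 CPM in each IL7R-set sum. All 10 tested of 12 cytotoxic granule genes were higher (median 3.58), among them CCL5, GZMA, PRF1 and GZMB with 5.57, 5.37, 4.11 and 4.00. Of 8 NK and cytotoxic transcription factors 5 were higher and 0 lower (median 1.20), with EOMES at 254 ± 166 CPM in the NCR1 set and 29.4 ± 35.7 CPM in the IL7R set (3.32 ± 0.31), ZEB2 at 1.78, NFIL3 at 1.39 and ZBTB16 at 1.02.

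TRAC and most T cell surface genes were lower in the NCR1 set, while other T cell lists went both ways. TRAC had 403, 325, 399 and 261 CPM in the NCR1 set, against 570, 579 and 970 CPM in the IL7R set (-1.0 ± 0.14, adjusted p = 1.2e-07). It was the 1 member of 6 receptor constant genes that could be tested. For comparison, B cells held TRAC at 44.2 and 50.7 CPM in meninges and 18.4 and 17.3 CPM in spleen. Of 11 tested coreceptor and surface genes (of 15), 7 were lower and 2 higher (median -3.05). CD28, the costimulatory receptor, averaged 4.04 ± 4.75 CPM in the NCR1 set and 85.0 ± 28.6 CPM in the IL7R set (-5.12 ± 0.38), and CD4 had 0 CPM in all 4 NCR1-set sums and 119 to 194 CPM in the IL7R set. CD40LG and CTLA4, an activator and an inhibitor of costimulation, changed by -5.79 and -5.21. T cell transcription factors went both ways (5 of 10 lower, 4 higher): LEF1, GATA3 and BCL11B fell by 3.41, 1.98 and 1.51 and IKZF3 rose by 2.46. Among 19 tested signalling genes next to the receptor (of 20), 5 were higher and 2 lower, with a median of 0.22. SH2D1A, the adaptor SAP, and the phosphatase PTPN22 changed by 2.31 and 2.06, and the transmembrane adaptors SIT1 and PAG1 by -4.83 and -1.5. Of these genes BCL11B (-1.08, adjusted p = 0.072), NFIL3 (1.15, 0.084) and ZBTB16 (1.13, 0.097) lost the call without meninges channel 1, and ZBTB16 also without meninges channel 2 (0.60, 0.44).

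The IL7R set also held markers of other cells, whose part in the chains' differences was not tested. Of 7 tested innate lymphoid genes (of 13), 6 were lower in the NCR1 set and 0 higher (median -3.88), and their summed level was 60.3, 76.9, 37.8 and 40.9 CPM in the NCR1 set, against 473, 554, 376 and 370 CPM in the IL7R set (all 4 channels). IL1RL1 and IL23R, cytokine receptors of type 2 and type 3 innate lymphoid cells, and the interleukin-2 receptor chain IL2RA changed by -7.30, -5.57 and -3.88. All 7 tested myeloid markers (of 9) were lower in the NCR1 set (median -7.60, or -5.71 with CSF1R at its bound). C1QC, LYZ and C1QB changed by -8.19, -7.78 and -7.60, and CSF1R had 0 CPM in every NCR1-set sum and 34.8, 51.4 and 0 CPM in the IL7R set. Their summed level was 676 and 1204 CPM in the IL7R set of meninges, against 16.5 and 19.7 CPM in its NCR1 set, and at most 17.6 CPM in spleen in both. Of 4 plasma cell genes, 2 were lower (JCHAIN -2.83, DERL3 -2.66), BANK1 of the 2 remaining B genes was higher (1.35, and 1.27 with adjusted p = 0.14 without meninges channel 2; CD22 was not called), BST2 of the plasmacytoid dendritic and basophil list was not called (0.12), and none of the 5 stromal markers passed the filter on low counts.

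NKG7 without NCR1 gave a similar picture. In the NKG7-only set CD3E, CD3G and CD247 were called higher than in the IL7R set (0.49 ± 0.14, 1.15 ± 0.14 and 2.78 ± 0.59, adjusted p = 0.00574, 7.45e-09 and 0.000276), 3 of 4 chains where 7.54% of all genes were higher (20.3% in either direction), while TRAC was lower (-0.81 ± 0.13). CD247 had 24.9, 24.2, 26.5 and 33.3 CPM in the NKG7-only set, the one set in which it was found in all 4 channels. The spleen values rest on few UMIs, since all spleen NKG7-positive cells without B genes held 10 and 13 CD247 UMIs. Without either meningeal channel only CD3G of the 4 remained called, since CD247 could not be tested and CD3E gave 0.38 and 0.56 (adjusted p = 0.26 and 0.056). CD3E also lost the call without the channel block (0.37, adjusted p = 0.478), and CD3D gained one with the looser B-gene rule (0.47, 0.017). Set against the NKG7-only set, the NCR1 set had lower CD3D (-0.45 ± 0.10, adjusted p = 0.0034) and CD3G (-0.56 ± 0.11, adjusted p = 0.000323), 2 of 4 chains where 1.29% of all genes were lower and 1.92% higher (3.21% in either direction). CD3E (-0.16 ± 0.11, adjusted p = 0.678) and CD247 (-0.29 ± 0.28, adjusted p = 0.803) were not called. CD3D lost the call without meninges channel 1 (adjusted p = 0.19) and without meninges channel 2 (0.13), and without the channel block neither chain kept it. With a gate of 2 UMIs CD3E was called lower too (-0.54, adjusted p = 0.0044).

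Of the 4 macaque sets, that with both NKG7 and IL7R had the highest CD3D in every channel. CD3D had 861, 908, 962 and 929 CPM in the NKG7-IL7R set, against 429, 395 and 635 CPM in the IL7R set (0.88 ± 0.12, adjusted p = 5.01e-07). CD3E (0.88 ± 0.14, adjusted p = 8.55e-06) and CD3G (0.95 ± 0.16, adjusted p = 1.05e-05) were higher as well, 3 of 4 chains where 3.20% of all genes were higher and 6.40% lower (9.60% in either direction), and so was TRAC (0.60 ± 0.13, adjusted p = 0.00126). CD247 was not called (7.66, 12.4, 0 and 0 CPM, 1.42 ± 0.80, adjusted p = 0.345). After thinning, 33.7, 35.2, 38.5 and 43.5% of these cells held at least 2 of CD3D, CD3E and CD3G, against 16.8, 19.8, 20 and 19.0% of the IL7R set. The spleen sums here held 21 and 25 cells. CD3G lost the call without meninges channel 1 (0.75, adjusted p = 0.055), and without the channel block CD3D alone was called (0.75, adjusted p = 0.036). Whether the NCR1-to-IL7R difference itself differs between the tissues was tested as an interaction. The spleen IL7R set entered it as 1 sum of 27 cells, without a replicate. Missing calls therefore do not show that the tissues are alike. CD247 gave -2.23, and between -2.32 and 2.84 over the settings. EdgeR called 0 of the 4 chains in this test (CD3D 0.16, CD3E -0.77, CD3G -0.15), against 13 of 9013 genes (0.144%, with 0.0444% higher). No chain had an unadjusted p under 0.05, and DESeq2 called 0 of CD3D, CD3E and CD3G.

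The chains were then used to split the NKG7-positive cells themselves, with B-gene-positive cells left out, by whether RNA for 2 or 3, 1 or 0 of CD3D, CD3E and CD3G was found. The classes with 2 or 3 chains held 789 and 797 cells in meninges and 98 and 128 in spleen, and those with 0 chains 179 and 218 in meninges and 93 and 98 in spleen. CD3D, CD3E and CD3G chose the classes and are not a result. Cells with 0 chains were shallower in spleen (median 1362 and 1507 UMIs, against 2542 and 2070 with 2 or 3 chains), so a cell can fall in that class for lack of depth. In mouse they were deeper (13614 against 8609 UMIs).

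CD247 was not called by chain count in macaque. It had 22.2, 21.0, 18.8 and 23.4 CPM in cells with 2 or 3 chains, against 14.8, 21.3, 16.6 and 32.2 CPM in cells with 0 chains (log2 fold change 0.08 ± 0.29, adjusted p = 0.919, from -0.09 to 0.18 over the 9 other settings that gave a value). In mouse, Cd247 was found in 64.7% of Nkg7-positive cells with 2 or 3 chains and in 13.2% of those with 0 chains, without thinning. After thinning these mouse shares were 14.1 and 3.24%. In macaque the unthinned shares were 7.98 and 7.15% against 3.91 and 5.50% in meninges and 5.10 and 4.69% against 3.23 and 6.12% in spleen. They were thus higher with 2 or 3 chains in both meningeal channels and went both ways in spleen. All macaque NKG7-positive cells without B genes held 94 and 108 CD247 UMIs in meninges and 10 and 13 in spleen. At such counts the missing call does not show that the classes are alike. The genes called in this contrast were 541 of 6295 (8.59%, with 3.07% higher and 5.53% lower), the 3 chains that chose the cells among them.

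TRAC followed the chain count in both species. It had 639, 646, 621 and 464 CPM in macaque cells with 2 or 3 chains, against 189, 204, 260 and 247 CPM in cells with 0 chains, with no overlap (1.45 ± 0.12, adjusted p = 1.27e-07). Cells with 0 chains therefore still held several times the TRAC of B cells. After thinning, TRAC was found in 39.5, 42.0, 40.2 and 30.1% of macaque cells with 2 or 3 chains, against 16.4, 12.7, 13.8 and 21.7% of cells with 0 chains. In mouse the shares were 42.4 and 1.89%, a wider gap that is not matched for depth. The chain classes were set on full counts in each species. Cells with 0 chains had a median of 13614 UMIs in mouse, against 3480 and 3416.5 in meninges and 1362 and 1507 in spleen. A macaque cell can thus more easily fall in that class for lack of depth, and the part of this was not tested. Mouse Trbc2, a beta chain constant gene, was found in 74.1% of cells with 2 or 3 chains and 17.3% of cells with 0 chains, and Cd8b1, a coreceptor chain, in 19.9 and 1.08%. LCK was higher in macaque cells with 2 or 3 chains (484 ± 28.6 CPM, against 356 ± 64.6 CPM, SD, n = 4 each; 0.44 ± 0.11, adjusted p = 0.0154), but not without meninges channel 1 or 2 (0.41 in both, adjusted p = 0.19 and 0.16).

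Genes of NK receptors went both ways with the chain count. NCR1 had 84.8, 83.0, 158 and 120 CPM in macaque cells with 2 or 3 chains, against 201, 213, 316 and 290 CPM in cells with 0 chains (-1.30 ± 0.12, adjusted p = 4.53e-07). KLRB1, the receptor CD161, averaged 615 ± 174 CPM with 2 or 3 chains and 1281 ± 263 CPM with 0 chains (-1.13 ± 0.13). NCR3, which also couples to the zeta chain, was higher with 2 or 3 chains (0.79 ± 0.14), and SH2D1B was lower (-0.74 ± 0.20). Leaving NCR1 out, 2 of the 10 tested genes of that list were higher, 2 lower and 6 not called. Without meninges channel 2 the changes of NCR3 (0.62, adjusted p = 0.11) and SH2D1B (-0.40, 0.55) were not called. TYROBP, the adaptor DAP12 of NK receptors, was found after thinning in 61.8, 57.3, 75.0 and 75.6% of macaque cells with 2 or 3 chains, against 73.9, 75.9, 75.9 and 75.4% with 0 chains. In mouse the shares were 7.67 and 43.5%. The other adaptor, Fcer1g, was found in 11.4% of mouse cells with 2 or 3 chains and 47.8% with 0 chains, whereas macaque FCER1G was at or below 2.41% in every class.

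**Figure D4:**
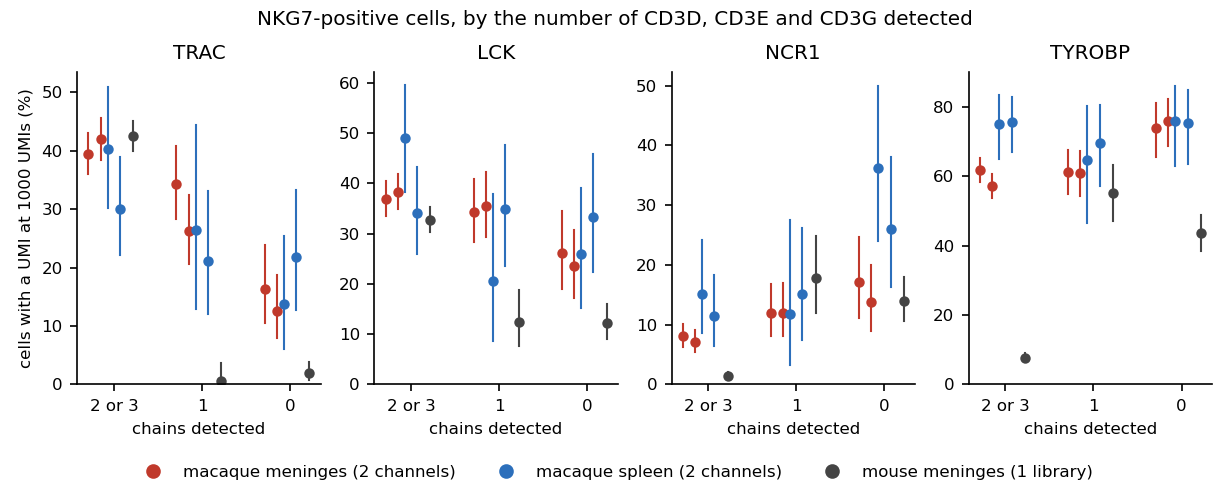
Percent of NKG7-positive cells without B genes in which TRAC, LCK, NCR1 or TYROBP was found at 1000 UMIs per cell (y axis), by the number of CD3D, CD3E and CD3G found in the full counts (x axis) and library (colour), with exact binomial 95% intervals that cover counting error only. TRAC in cells with 0 chains is at 1.89% in mouse and between 12.7 and 21.7% in macaque, and TYROBP in cells with 2 or 3 chains is at 7.67% in mouse and between 57.3 and 75.6% in macaque.

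T cell surface genes made up most of the T cell genes called higher in this contrast. Of 7 tested coreceptor and surface genes 6 were higher with 2 or 3 chains and 1 lower (median 0.88, against -0.02 over all genes). PDCD1, the inhibitory receptor PD-1, averaged 58.6 ± 27.0 CPM, against 15.8 ± 10.4 CPM with 0 chains (2.00 ± 0.29), ICOS and CD6 changed by 2.19 and 2.01, and CD7, which NK cells also carry, was the lower one (474 ± 144 CPM, against 1074 ± 356 CPM, -1.19 ± 0.10). Of 8 T cell transcription factors 2 were higher (BCL11B 0.92, THEMIS 0.68) and 0 lower. Of 17 signalling genes GRAP2 (0.72) and LCK were higher and SYK, the kinase related to ZAP70 that NK cells and B cells use, was lower (-1.74 ± 0.24). Of 10 granule genes 4 were higher and 1 lower: GZMM 0.99, CCL5 0.70 and GZMA 0.59, but GZMK -0.63. Of 8 NK and cytotoxic transcription factors IKZF2 was higher (0.70) and EOMES lower (-0.63). Outside the lists, among called genes whose average log2 CPM reached 5, the largest rises were those of PTTG1, ADAM23, MT1X, JAKMIP2 and NSG1 (2.00, 1.71, 1.47, 1.46 and 1.43), and the largest falls those of IL1B, G0S2, CST3, VEGFA and VMO1 (-6.01, -5.72, -5.13, -4.76 and -4.18). Without meninges channel 1, GRAP2 (0.62, adjusted p = 0.26), BCL11B (0.94, 0.094), THEMIS (0.62, 0.19), EOMES (-0.41, 0.34), ADAM23 (1.14, 0.23) and NSG1 (1.16, 0.12) were not called. Without meninges channel 2, GRAP2 (0.88, 0.12), BCL11B (0.70, 0.25), THEMIS (0.71, 0.13), EOMES (-0.48, 0.26), JAKMIP2 (1.18, 0.093) and NSG1 (1.51, 0.056) were not. Without the channel block 23 genes were called in all, TRAC and NCR1 among them.

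Markers of other cells were more abundant in the cells with 0 chains, and their part in these differences was not tested. All 7 tested myeloid markers were lower with 2 or 3 chains (LYZ -7.08, CFD -5.48, C1QB -5.30, C1QC -5.16). Their summed level was 30.1 and 53.6 CPM with 2 or 3 chains, against 878 and 2651 CPM with 0 chains in meninges, and at most 5.54 CPM in either class of spleen. Of 4 plasma cell genes 3 were lower (JCHAIN -5.12, MZB1 -3.58, DERL3 -3.24), with a summed level of 45.4 and 95.9 CPM, against 972 and 1182 CPM in meninges. BANK1 (-1.88) and AREG (-3.57) were lower, IL18R1 (-0.10) and BST2 (-0.32) were not called, and no stromal marker was tested. In the spleen channels TRAC had 621 and 464 CPM with 2 or 3 chains, against 260 and 247 CPM with 0 chains. NCR1 had 158 and 120 CPM there, against 316 and 290 CPM. The part of depth, doublets and other cells in these spleen values was not tested.

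Read from the chains to the gates, cells with at least 2 of CD3D, CD3E and CD3G (full counts, few B-gene UMIs) numbered 968 and 981 in meninges, 158 and 206 in spleen and 2073 in mouse. In macaque 88.4 and 89.8% of them were NKG7-positive in meninges and 86.7 and 84.5% in spleen, against 70.5% in mouse. IL7R was found in 31.8 and 31.5% in meninges and 20.9 and 19.9% in spleen, against 67.8% in mouse. NCR1 was found in 20.4 and 19.6% in meninges and 25.3 and 23.8% in spleen, against 3.18% in mouse. The cells that passed the macaque sort and held RNA of several chains were thus mostly NKG7-positive, with IL7R in the minority. The species also differ in depth, sort and reference, and the difference between them was not tested. CD247-positive cells showed the same contrast: at least 2 of the other chains were found in 69.6 and 58.8% of 102 and 114 such cells in meninges, 43.8 and 50% of 16 and 16 in spleen and 92.6% of 1537 in mouse.

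CD3D differed from the other chains in macaque B cells. It was found in 17.4 and 16.9% of meningeal B cells and 17.5 and 19.0% of spleen B cells, at 57.7 and 58.7 CPM in meninges and 88.3 and 94.4 CPM in spleen, against 4.36% and 7.63 CPM in mouse. B cells held 47.6 and 66.7 CD3D UMIs for each CD3E UMI in meninges and 54.8 and 94.3 in spleen. NKG7-positive cells without B genes held 1.42 and 1.46 in meninges and 2.09 and 1.74 in spleen. In mouse the ratio was 2.13 in B cells and 1.44 in Nkg7-positive cells. CD3D was also present in cells with at least 100 JCHAIN UMIs and no MS4A1, NKG7, NCR1 or IL7R, at 134 and 128 CPM in meninges and 170 and 227 CPM in spleen, with 0 or 1 CD3E UMI in each channel. The 53 and 50 C1QC-positive meningeal cells without those 4 genes gave 0 and 3 CD3D UMIs. Spleen B cells with RGS13, a germinal centre gene, had CD3D at 99.2 and 127 CPM. A count of chains that includes CD3D therefore has a higher floor in macaque B-lineage cells than one on CD3E and CD3G. After thinning, the rule of at least 2 chains kept that floor at or below 0.250% of B cells. This limit does not apply to full counts, on which the chain classes and the reading from chains to gates were set. Without thinning, Cd3d and Cd3g were found together in 0.357% of mouse B cells. That mouse value is no floor for macaque. At full depth CD3G was found in 5.55 and 5.76% of meningeal B cells and 3.08 and 2.46% of spleen B cells, beside the CD3D shares given above.

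**Figure D5:**
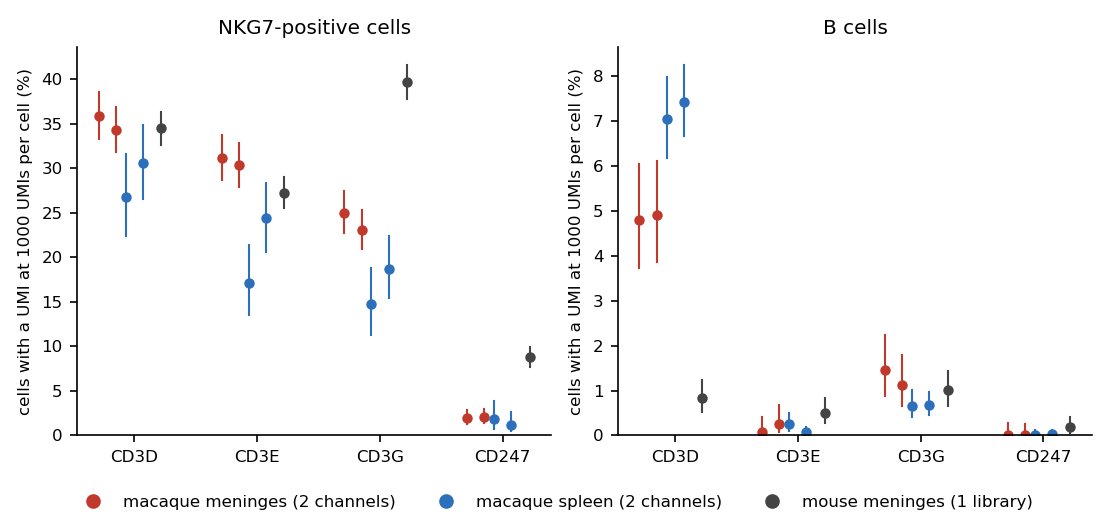
Percent of cells in which each chain was found at 1000 UMIs per cell (y axis, a scale for each panel), in NKG7-positive cells (left) and in B cells (right) by library (colour), with exact binomial 95% intervals that cover counting error only. In B cells CD3D lies between 4.79 and 7.42% in the macaque channels and at 0.822% in mouse, while CD3E lies at or below 0.500% in all 5 libraries.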

How the data were processed

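Per the labels' protocols, cells were sorted, loaded on 10x 3′ channels (8000 cells per macaque channel, 30000 for mouse) and sequenced. The deposited matrices hold raw UMI counts per gene and barcode. The submitters' processing notes name Cell Ranger and mm10 as what the authors used. Neither the tool's version nor a macaque build is given in the sources used here. The matrices held 4073 and 4313 barcodes for macaque meninges, 5840 and 6786 for macaque spleen and 13947 for mouse.

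Cells needed at least 300 genes and no more than 10% mitochondrial UMIs. A doublet caller (scanpy 1.11.5) removed 39 cells from each meningeal channel and 173 from mouse, and marked 0 in spleen, where it did not work, so spleen doublets remain. Gates were at least 1 UMI of the gate gene. The 7 B genes included CD79B, MS4A1, EBF1, PAX5, VPREB1 and VPREB3, and a gene not listed in a library counted as 0. In mouse the rule of no B-gene UMI was replaced by fewer than 10 per 10000 UMIs after the data were seen, because 84.1% of Nkg7-positive, 77.9% of Ncr1-positive and 94.5% of Il7r-positive cells held one. Of NKG7-positive cells 94 and 122 in meninges, 129 and 97 in spleen and 1 in mouse were too shallow to thin to 1000 UMIs.

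UMIs were summed per channel and gate (at least 20 cells) and tested in 10 comparisons with edgeR 4.0.16 (quasi-likelihood, TMM, Benjamini-Hochberg over all genes passing filterByExpr), checked on simulated data. Tissue comparisons used 4 sums. Comparisons within channels had the channel as a block, because their sums come from one library. The difference between channels 1 and 2 was correlated across genes between the tissues, and gave -0.12 to 0.00086. These values cannot show whether same-numbered channels share animals. No label pairs them, so the tissue comparisons were not paired. Intervals are exact, 95%, and cover counting error only. The chains and the 13 gene lists were chosen with earlier results of these data known. Named genes were up to 4 called members of each list with the largest change (the 2 most abundant where fewer than 2 were called), plus the 5 largest rises and falls outside the lists. Alternatives were other size factors, DESeq2 1.42.0, no count filter, stricter cell filters, doublets kept, other gates and depths, the channel block and each channel left out. Not analysed here were macaque LAT, CD27, TRBC1, TRBC2, TRDC, KLRK1, KLRC1, KLRC2, CD8B and GNLY.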

Additional observations from a re-analysis of the deposited data

Results flagged for a closer look

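CD3E ran in opposite directions between the NCR1 set and the IL7R set in the species. The log2 ratio of its summed level in the NCR1 set over the IL7R set was -2.56 in the mouse library, and 0.48 and 0.38 in the meningeal channels and 0.96 in spleen channel 2 of macaque. CD3G gave -1.26 in the mouse library, and 0.96, 0.65 and 0.87 in the same macaque channels. Spleen channel 1 had too few IL7R-set cells to give a ratio. Both genes are listed because the mouse sample moved one way and every macaque channel the other, and the difference was not tested. The mouse ratio rests on 1 library, and the sort on CD3, the B-gene rule, the depth and the reference differ along with the species. CD3D gave -1.62 in mouse, and -0.10, 0.05 and -0.39 in macaque, which is not opposite in every channel. The IL7R set leaves out cells with NKG7. In the wider gates, which keep them, both genes were lower in NCR1-positive cells of both species, except CD3E in spleen channel 2. CD3E had 285, 279, 210 and 281 CPM in macaque NCR1-positive cells, against 357, 403, 335 and 264 CPM in IL7R-positive ones. CD3G had 188, 173, 93.1 and 166 CPM, against 216, 204, 141 and 179 CPM. In mouse Cd3e had 66.8 against 349 CPM and Cd3g 245 against 634 CPM.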

How the results depend on the processing

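The number of chains called in a comparison moved as follows. Between tissues, leaving out B-gene-rich cells gave 2 chains in NKG7-positive cells, against 4, and 1 in NCR1-positive cells, against 2. In NCR1-positive cells DESeq2 gave 0, a gate of 2 UMIs 1 and leaving out a channel 1 to 3. In IL7R-positive cells the fit with no filter on low counts gave 1, against 0. Without the channel block ("no replicate block") the counts were 1 for the NCR1 set against the IL7R set (against 2), 1 for the NKG7-IL7R set (against 3), 0 for the NCR1 set against the NKG7-only set (against 2) and 2 for the NKG7-only set against the IL7R set (against 3). Leaving out a channel gave 0 to 2, 2 to 3 and 1 to 2 for the first 3 of these, and 1 to 3 for the NKG7-only set against the IL7R set (against 3). CD247 could not be tested between sets without either meningeal channel.

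The shares of cells with at least 2 chains changed sign between tissues. In NCR1-positive cells the difference was 16.2 points without thinning, 2.08 at 2000 UMIs and 0.344 with a gate of 2 UMIs, and between -3.66 and 1.33 with a channel left out. In IL7R-positive cells it was 19.2, 5.68 and 1.43, and 0.13 with the looser B-gene rule. The cause was not tested, but depth differed between tissues. Mouse Nkg7-positive cells gave 57.9% unthinned, 50.8% at 2000 UMIs, 48.6% with gates on thinned counts, 45.9% with 2 UMIs, 39.6% with stricter filters and 45.7% with few B-gene UMIs. Mouse Ncr1-positive cells gave 20.2% unthinned, and Il7r-positive cells 64.3% unthinned, 55.8% at 2000 UMIs and 40.6% with gates on thinned counts.

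With the channel number as a replicate block between tissues 7110, 3481, 1510 and 450 genes were called in all, NKG7-positive, NCR1-positive and IL7R-positive cells, against 7235, 3230, 1575 and 479, and pairing the numbers crosswise gave 7685 in all cells. No label says that the numbers pair channels between tissues. The crossed pairing, the looser B-gene rule and the mouse variants were chosen after seeing the data. DESeq2 called 1574 genes in NKG7-positive and 650 in NCR1-positive cells, 487 for the NKG7-IL7R set (against 768), 56 for the NCR1 set against the NKG7-only set (against 257) and 165 between chain counts (against 541). Without the channel block the 4 set contrasts gave 601, 766, 195 and 5 genes (against 1416, 1623, 768 and 257), the interaction 6 (against 13) and the chain counts 23. A gate of 2 UMIs gave 573 in NCR1-positive cells and 316 between chain counts, no filter 850 there, and the looser B-gene rule 36 in the interaction. In NCR1-positive cells 63.7% of calls were higher, against 78.7% with no filter and 77.8% in DESeq2. In IL7R-positive cells 77.2% were, against 88.0% with no filter, where the median of all genes was 0.39. The interaction could not be fitted without spleen channel 2 or with a gate of 2 UMIs. Of the other values for single genes 1162 kept direction and call, 107 lost the call and 9 gained it. The spleen gates held between 0 and 19 CD247 UMIs each.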

Other observations

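Over the 15 sums of channel and set, the genes whose log2 CPM was most like that of CD3E, of 3854 compared, were MIER1 (Pearson's r 0.89), PSMC4 (0.84), SLBP (0.83), PDIA3 (0.83) and PNMA1 (0.82), while CD3G came 41st with 0.74 and CD3D 489th with 0.54. Those most like CD247 were SOS2 (0.87), PSMA5, MOB2 and SERPINB6 (0.86 each) and FBXW7 (0.85), while CD3G had 0.66, CD3E 0.30 and CD3D -0.14. The 15 sums come from 4 libraries and share them, so these correlations are descriptions.

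Plasmacytoid dendritic and basophil markers summed to 143 CPM in the mouse Ncr1 set and 2200 CPM in the mouse Il7r set. Innate lymphoid genes summed to 259 and 976 CPM in the same sets. Their part in the mouse chain levels was not tested.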
